A study of Homo sapiens with 4 samples.

Results

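Macroautophagy is the route by which a cell wraps part of its own cytoplasm in a double membrane and delivers it to the lysosome. A kinase complex around ULK1 starts the process, a lipid kinase complex around PIK3C3 marks the site, and lipid carriers feed the growing membrane. Ubiquitin-like conjugation systems then fix LC3 and GABARAP proteins on that membrane, where cargo receptors such as SQSTM1 bring in ubiquitin-tagged proteins, damaged mitochondria or bacteria. In myeloid leukaemia cells this route is studied as a means of surviving stress and drugs.

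The results below concern 39 genes of this machinery, named by symbol and found by their Ensembl identifier, out of 41084 identifiers in the gene-level tables. They comprise 5 initiation genes, 6 nucleation genes, 6 genes of membrane supply, 15 conjugation genes with LC3 and GABARAP among them, 5 cargo receptor genes with the kinase gene TBK1, and the fusion gene STX17. Each symbol had 1 identifier, and all 39 held enough reads to be tested. RNA of OCI-AML3, a human acute myeloid leukaemia line, was sequenced in 4 poly(A)-selected libraries. The genotype label was Plex CEBPB in 2 libraries, called CEBPB here, and Plex Control in the other 2, called Control. The labels do not explain the word Plex, the promoter behind it, or whether the cells are a clone or a pool, and they give no drug treatment. The series title places the cells in work on resistance to BCL2 and MDM2 inhibitors, with C/EBPβ, IL-1β and TNFα named as the factors involved.

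The deposited counts summed to between 18151225 and 21950575 per library. CEBPB, which encodes the transcription factor C/EBPβ (ENSG00000172216.6), read 536 and 339 TPM in the CEBPB libraries, against 4.72 and 4.47 TPM in the Control libraries. TPM is transcript abundance corrected for length and scaled to the same total in each library. The 7 listed myeloid markers summed to 7851 and 8109 TPM in the CEBPB libraries, against 1710 and 1613 TPM in the Control libraries. Most of each sum was LYZ. The markers did not move in 1 direction: 2 rose, 3 fell, 1 did not pass and 1 was not tested. LYZ, lysozyme, rose (7686 and 7921 TPM in CEBPB, 1413 and 1308 TPM in Control, adjusted p = 9.9e-05, edgeR), as did ITGAM, an integrin of maturing myeloid cells (4.54 and 5.23 TPM in CEBPB, 1.53 and 0.972 TPM in Control, adjusted p = 0.0058, edgeR). SPI1, the transcription factor PU.1, fell (103 and 120 TPM in CEBPB, 218 and 223 TPM in Control, adjusted p = 9.5e-04, edgeR), as did the receptor kinase gene FLT3 (8.62 and 8.56 TPM in CEBPB, 28.95 and 32.5 TPM in Control, adjusted p = 2.0e-04, edgeR). MPO also fell (adjusted p = 0.0247, edgeR) but stayed at 1.79 TPM or less, CD33 (46.5 to 53.0 TPM) did not pass, and ANPEP had too few reads to test. The part of these markers in the autophagy results was not tested. The listed T cell, B cell, epithelial and fibroblast markers reached at most 1.84 TPM in any library, and the erythroid markers were at 0. The labels do not say whether the 2 libraries of a group came from separate cultures, so p-values measure only the spread between these libraries, which may be technical. In bulk RNA, fewer cells of a type and less RNA per cell cannot be told apart.

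Autophagy genes were higher in the CEBPB libraries more often than they were lower. All 6 genes of the cargo receptor step, TBK1 among them, rose. Among other receptors, on a further list given below, 7 of 10 tested rose and 2 fell. The largest rises of the 39 genes were in WIPI1, GABARAPL1, OPTN, ULK1, SQSTM1 and NBR1. With edgeR's quasi-likelihood test and a Benjamini-Hochberg adjusted p under 0.05 over all 13698 identifiers tested, 21 of the 39 genes (53.8%) rose, where 23.7% of all tested identifiers rose. 2 genes (5.13%) fell, where 24.7% of all tested identifiers fell, and 16 did not pass. In either direction, 23 of the 39 passed, beside 48.5% of all tested. Scaled by library totals, which raises the median of all identifiers by 0.18 on the log2 scale, 25 of the 39 rose and 2 fell, beside 32.3% rising and 17.2% falling among all tested. The median log2 fold change of the 39 genes was 0.43, beside 0.00092 over all identifiers tested. Tested against a change of 1.5-fold, 7 of the 39 (17.9%) rose and 1 fell, beside 8.66% rising and 8.67% falling among all tested. Among those that rose in the first test, 14 were not shown to exceed 1.5-fold.

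In TPM the 39 genes summed to 2774 and 2684 in the CEBPB libraries and to 1799 and 1764 in the Control libraries. Of the difference between the group means, 948 TPM, 5 genes made up 52.4%: SQSTM1 alone 21.1%, then ATG3, GABARAPL1, GABARAPL2 and CALCOCO2. Both CEBPB libraries stood above both Control libraries in TPM for 34 of the 39 genes, where the same held for 48.7% of tested identifiers. Both stood below for 4 genes, where the same held for 28.6%. Groups that stand apart were thus common among tested identifiers, and where given below for single genes this is a description. TPM differences run higher than the tested fold changes, because TPM, like library totals, is not scaled by trimmed means. SQSTM1 was the highest of the 39 genes by mean TPM in the CEBPB group and ranked 9th in the Control group, where GABARAP was highest. The next genes in the CEBPB group, ATG3 and GABARAP, overlapped each other in their libraries (241 to 295 and 257 to 268 TPM).

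**Figure D1:**
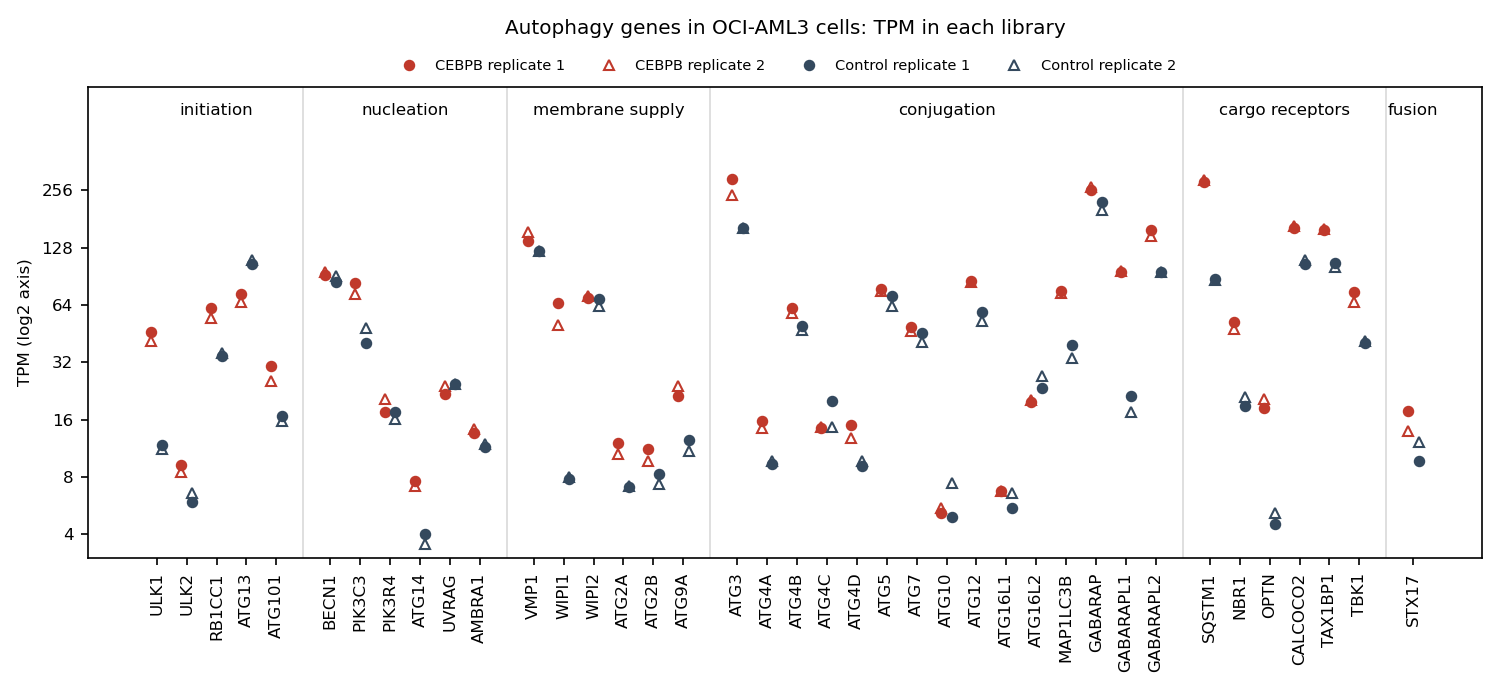
TPM on a log2 axis for each of the 39 autophagy genes in every library, ordered by step, with the CEBPB libraries to the left of the Control libraries. WIPI1, GABARAPL1, OPTN and ULK1 show the widest gaps, and among genes with lower CEBPB libraries, such as ATG16L2, the gap is widest in ATG13.

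Within the initiation complex, 3 of 5 genes rose and 1 fell. ULK1 (ENSG00000177169.10, chromosome 12, 131894651 to 131923167, plus strand), the kinase that starts autophagy and that AMPK and mTORC1 regulate, read 45.9 and 41.3 TPM in the CEBPB libraries, against 11.7 and 11.2 TPM in the Control libraries. Both CEBPB libraries were well above both Control libraries, a change of 1.75 on the log2 scale (SE 0.083, adjusted p = 1.8e-04, edgeR). ULK2, its paralog, was at 9.19 and 8.51 against 5.88 and 6.60 TPM. The ULK2 groups did not overlap, but the test did not pass (0.33, SE 0.14, adjusted p = 0.108, edgeR). ULK1 made up 83.3% and 82.9% of the ULK1 and ULK2 total in the CEBPB libraries and 66.6% and 62.9% in the Control libraries.

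The scaffold and the small subunit of the same complex also rose. RB1CC1, the scaffold known as FIP200, read 61.4 and 54.8 TPM in the CEBPB libraries and 34.6 and 35.7 TPM in the Control libraries (0.54, SE 0.069, adjusted p = 0.0024, edgeR). ATG101, which stabilises ATG13, read 30.7 and 25.6 TPM in CEBPB and 16.7 and 15.8 TPM in Control (0.61, SE 0.099, adjusted p = 0.0053, edgeR). ATG13, the adaptor that joins the kinase to the scaffold, went the other way: 73.0 and 66.0 TPM in CEBPB, against 105 and 110 TPM in Control (-0.81, SE 0.066, adjusted p = 6.3e-04, edgeR). ATG13 was also the gene that fell by more than 1.5-fold (adjusted p = 0.0162, edgeR test against that change).

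In the lipid kinase complex, the catalytic subunit and the autophagy-specific subunit rose and the rest did not pass. PIK3C3 (VPS34), the kinase itself, read 83.8 and 72.8 TPM in CEBPB and 40.2 and 48.7 TPM in Control (0.64, SE 0.11, adjusted p = 0.0065, edgeR). ATG14, which directs the complex to sites of autophagosome formation, read 7.65 and 7.12 TPM in CEBPB and 4.00 and 3.56 TPM in Control (0.78, SE 0.16, adjusted p = 0.012, edgeR). Both genes had non-overlapping groups. The ATG14 call was lost without Control replicate 2 (adjusted p = 0.0673, edgeR) and with DESeq2 (adjusted p = 0.0524). BECN1, the scaffold subunit that BCL2 proteins can bind, was at 91.6 and 95.2 TPM in CEBPB and 84.2 and 91.0 TPM in Control (-0.09, SE 0.080, adjusted p = 0.421, edgeR). UVRAG, which takes the place of ATG14 in an endosomal form of the complex, was at 21.8 and 23.9 against 24.7 and 24.7 TPM (-0.29, SE 0.10, adjusted p = 0.0613, edgeR). On recovered reads with a length offset UVRAG did pass as lower (-0.30, adjusted p = 0.0493, edgeR). UVRAG was at -0.18 without CEBPB replicate 1 and at -0.39 without CEBPB replicate 2. PIK3R4, the regulatory subunit known as VPS15, was at -0.0038 (SE 0.13) and AMBRA1, a BECN1 regulator, at 0.07 (SE 0.11) on the log2 scale, neither passing (adjusted p = 0.986 and 0.614, edgeR).

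Among the genes of membrane supply 3 of 6 rose. WIPI1 (ENSG00000070540.13, chromosome 17, 68420948 to 68457513, minus strand), a reader of the lipid that PIK3C3 makes, had the largest change of the 39 genes. It read 65.5 and 50.3 TPM in the CEBPB libraries, against 7.76 and 7.99 TPM in the Control libraries, a change of 2.70 on the log2 scale (SE 0.13, adjusted p = 1.9e-04, edgeR) or 6.48-fold. Its paralog WIPI2, which recruits ATG16L1, was at 69.4 and 71.5 TPM in CEBPB and 68.9 and 63.5 TPM in Control, and did not pass (-0.09, SE 0.082, adjusted p = 0.418, edgeR). WIPI1 made up 48.6% and 41.3% of the WIPI1 and WIPI2 total in CEBPB, against 10.1% and 11.2% in Control.

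The lipid scramblase gene ATG9A, whose vesicles seed the membrane, read 21.2 and 24.1 TPM in CEBPB and 12.4 and 11.0 TPM in Control (0.78, SE 0.13, adjusted p = 0.0063, edgeR). ATG2A, one of a pair of lipid transfer proteins, read 12.0 and 10.5 TPM in CEBPB and 7.08 and 7.16 TPM in Control (0.48, SE 0.12, adjusted p = 0.0249, edgeR). The groups of both genes were apart, but ATG2A lost its call without CEBPB replicate 1 (adjusted p = 0.0788, edgeR), without either Control library (adjusted p up to 0.104, edgeR) and with DESeq2 (adjusted p = 0.141). The other lipid transfer gene ATG2B was at 0.25 (SE 0.14, adjusted p = 0.189, edgeR). VMP1, an endoplasmic reticulum scramblase, was at 138 and 154 TPM in CEBPB and 123 and 124 TPM in Control (0.07, SE 0.093, adjusted p = 0.586, edgeR).

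**Figure D2:**
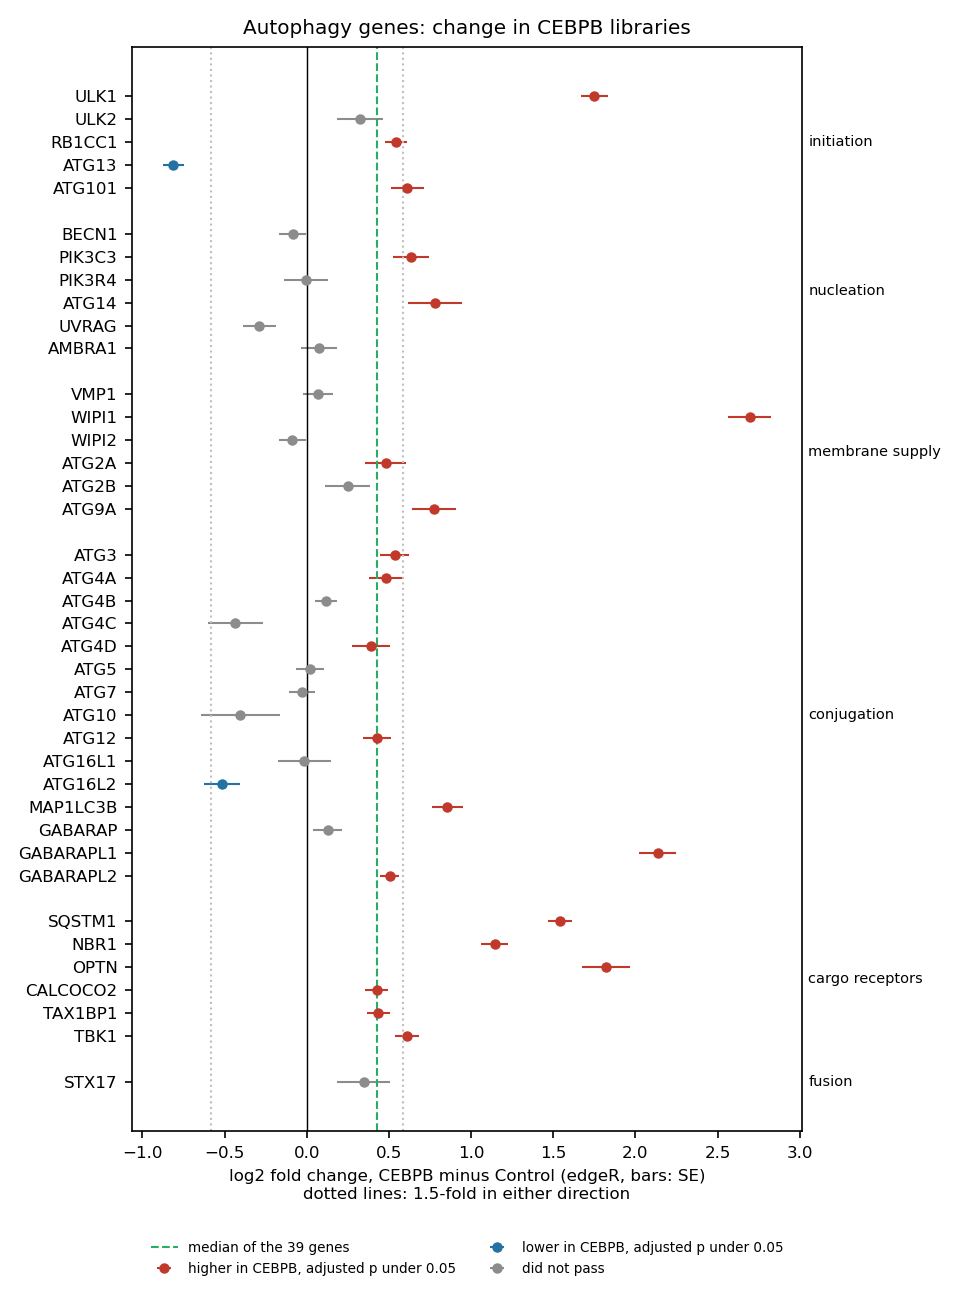
Log2 fold change of CEBPB minus Control with its SE for the 39 genes, grouped by step, from edgeR with 2 libraries per group. All 6 genes of the cargo receptor step lie right of 0 and pass, and the dashed line marks the median of 0.43.

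In the conjugation systems 7 of 15 genes rose and 1 fell. GABARAPL1 (ENSG00000139112.11, chromosome 12, 10212458 to 10223130, plus strand), a GABARAP paralog, read 96.0 and 96.6 TPM in the CEBPB libraries, against 21.4 and 17.4 TPM in the Control libraries (2.14, SE 0.11, adjusted p = 2.3e-04, edgeR). MAP1LC3B, the LC3 gene whose lipidated protein is the usual marker of autophagosomes, read 75.6 and 74.3 TPM in CEBPB and 39.5 and 33.6 TPM in Control (0.86, SE 0.097, adjusted p = 0.0017, edgeR). GABARAPL2 read 158 and 148 TPM in CEBPB and 95.8 and 95.1 TPM in Control (0.50, SE 0.059, adjusted p = 0.0019, edgeR). All 3 had CEBPB libraries above both Control libraries. GABARAP, the most abundant of the family, was at 257 and 268 against 224 and 201 TPM and did not pass (0.13, SE 0.087, adjusted p = 0.280, edgeR). Under library totals it did pass, at 0.30 (adjusted p = 0.0229, edgeR). It also passed in limma fits of log2 TPM with 1 added (adjusted p = 0.0161) and with 0.1 added (0.0176).

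The make-up of this family differed between the groups. GABARAPL1 held 16.4% and 16.5% of the summed TPM of the 4 genes in the CEBPB libraries and 5.62% and 5.02% in the Control libraries. GABARAP held 43.7% and 45.6% in CEBPB and 58.8% and 57.9% in Control. The summed level was 587 and 587 TPM in CEBPB, against 380 and 347 TPM in Control. With 2 libraries per group an exact permutation test of such a share cannot pass, so these shares are descriptions. Retrocopies close in sequence took few reads: MAP1LC3B2 was at 1.59 TPM or less and GABARAPL3 at 0 in every library.

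Enzymes that process or attach these proteins rose in part. ATG3, the enzyme that transfers LC3 and GABARAP proteins to lipid, read 295 and 241 TPM in CEBPB and 163 and 163 TPM in Control (0.54, SE 0.087, adjusted p = 0.0052, edgeR). The ATG4 proteases, which trim LC3 and GABARAP proteins and later release them, divided. ATG4A read 15.7 and 14.5 TPM in CEBPB and 9.39 and 9.70 TPM in Control (0.48, SE 0.10, adjusted p = 0.0132, edgeR), and ATG4D read 15.0 and 12.9 against 9.12 and 9.65 TPM (0.39, SE 0.12, adjusted p = 0.0391, edgeR). ATG4A lost its call without Control replicate 1 (adjusted p = 0.072, edgeR), without Control replicate 2 (0.0563) and with DESeq2 (0.0788). ATG4D lost it with any 1 library left out (adjusted p from 0.0517 to 0.168, edgeR), with DESeq2 (0.193), with no filter (0.0566, edgeR), on recovered reads with a length offset (0.0567, edgeR), and with the replicate number as a block (adjusted p = 0.0611, edgeR). ATG4B, the most abundant of these proteases, was at 61.6 and 58.0 against 49.8 and 47.6 TPM (0.12, SE 0.066, adjusted p = 0.205, edgeR), and ATG4C was at -0.43 (SE 0.17, adjusted p = 0.0849, edgeR). ATG4C was at -0.19 without Control replicate 1 and at -0.65 without Control replicate 2.

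In the ATG12 system 1 gene rose and 1 fell. ATG12, the ubiquitin-like protein that is joined to ATG5, read 85.3 and 84.9 TPM in CEBPB and 59.1 and 52.7 TPM in Control (0.43, SE 0.084, adjusted p = 0.0101, edgeR), a call lost without Control replicate 2 (adjusted p = 0.0736, edgeR). ATG16L2, a paralog of the scaffold ATG16L1, read 19.7 and 20.2 TPM in CEBPB and 23.3 and 27.1 TPM in Control (-0.52, SE 0.11, adjusted p = 0.0125, edgeR). Its groups were apart, and the call was lost without CEBPB replicate 1 (adjusted p = 0.0658, edgeR) or Control replicate 2 (0.0579) and on log2 TPM (0.0512 and 0.0510, limma). ATG5, the acceptor of ATG12, ATG7, the activating enzyme of both systems, ATG10, the transfer enzyme for ATG12, and ATG16L1 lay between -0.40 and 0.02 on the log2 scale and did not pass (adjusted p from 0.219 to 0.950, edgeR). ATG10 had the fewest reads of the 39 genes, 104 in the lowest library as recovered from TPM and length. ATG16L1 had the same values as an identifier without a symbol, so reads of that pair are not told apart and its level, 5.47 to 6.77 TPM, is uncertain.

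All 5 cargo receptor genes and TBK1 rose, and the 6 genes summed to 750 and 752 TPM in CEBPB, against 363 and 366 TPM in Control. SQSTM1 (ENSG00000161011.20, chromosome 5, 179806398 to 179838078, plus strand), also called p62, links ubiquitin to LC3. It read 284 and 291 TPM in the CEBPB libraries and 87.9 and 86.9 TPM in the Control libraries, a change of 1.54 on the log2 scale (SE 0.070, adjusted p = 1.7e-04, edgeR). NBR1, a partner receptor of SQSTM1, read 51.9 and 47.9 TPM in CEBPB and 18.9 and 20.9 TPM in Control (1.14, SE 0.082, adjusted p = 4.4e-04, edgeR). OPTN, optineurin, a receptor for mitochondria and bacteria, read 18.3 and 20.6 TPM in CEBPB and 4.54 and 5.18 TPM in Control (1.82, SE 0.15, adjusted p = 6.3e-04, edgeR). These 3 genes passed the test against a 1.5-fold change, with adjusted p = 3.8e-04 for SQSTM1, 0.0026 for NBR1 and 0.0018 for OPTN (edgeR).

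The other receptors rose by less. CALCOCO2, known as NDP52 and a receptor for bacteria and mitochondria, read 162 and 166 TPM in CEBPB and 105 and 110 TPM in Control (0.43, SE 0.071, adjusted p = 0.0057, edgeR). TAX1BP1, its relative that acts with NBR1 on protein aggregates, read 158 and 161 TPM in CEBPB and 107 and 102 TPM in Control (0.43, SE 0.071, adjusted p = 0.0053, edgeR). TBK1, the kinase that phosphorylates OPTN and SQSTM1, read 75.2 and 66.1 TPM in CEBPB and 40.2 and 41.4 TPM in Control (0.61, SE 0.072, adjusted p = 0.0019, edgeR). In all 3 genes the groups were apart, and CALCOCO2 lost its call without Control replicate 1 (adjusted p = 0.0535, edgeR). SQSTM1 held 42.1% and 42.4% of the summed TPM of the 5 receptors in CEBPB and 27.2% and 26.8% in Control, while CALCOCO2 held 24.0% and 24.1% in CEBPB and 32.6% and 33.8% in Control. STX17, the syntaxin that fuses the finished autophagosome with the lysosome, was at 17.7 and 13.9 TPM in CEBPB and 9.73 and 12.2 TPM in Control (0.35, SE 0.16, adjusted p = 0.133, edgeR).

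**Figure D3:**
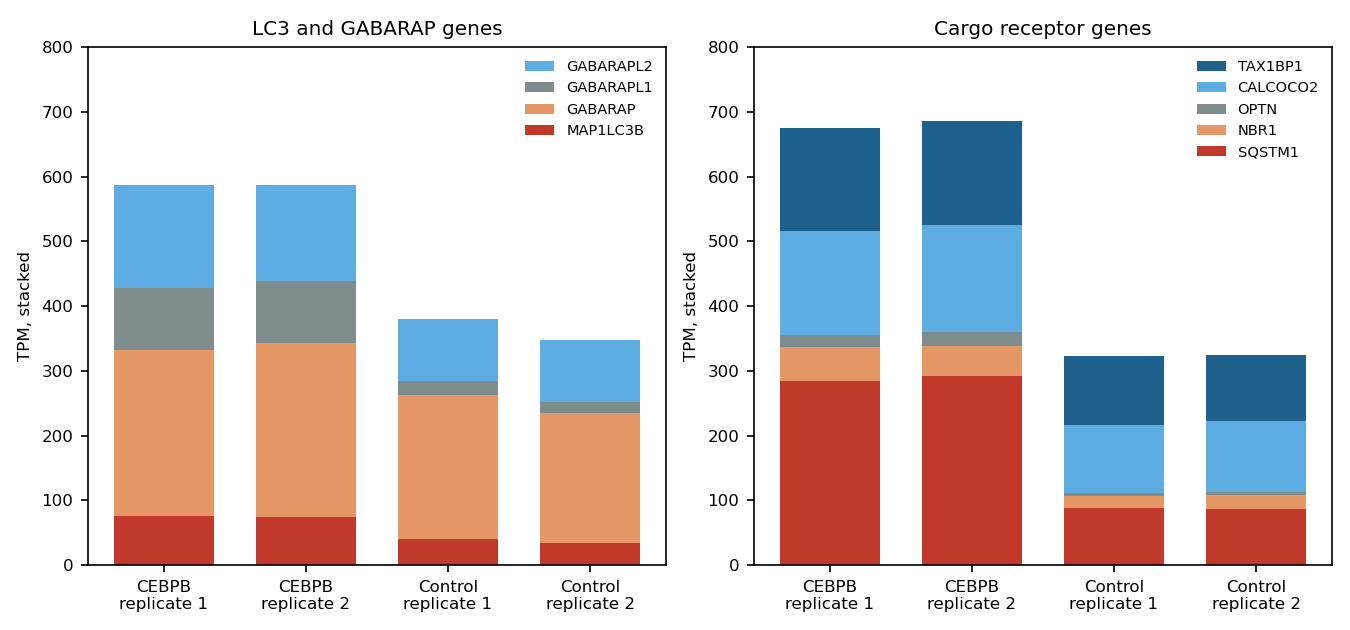
Stacked TPM per library of the 4 LC3 and GABARAP genes (left) and the 5 cargo receptor genes (right), CEBPB libraries first. The receptor total is 675 and 686 TPM in CEBPB and 323 and 325 TPM in Control, with the SQSTM1 share at the bottom of each bar.

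Promoter windows from RefSeq (GRCh38.p14) were taken as the 250 bases before the first listed RefSeq start of each gene. They were found for 35 of the 39 genes, and not for RB1CC1, UVRAG, ATG4D and STX17. Other starts of a gene were not searched. In AMBRA1, BECN1, ATG5, ATG16L1, GABARAPL1, OPTN, MAP1LC3B and ATG101, for example, the window lies inside the gene by its GENCODE coordinates. The TBK1 window lies inside its gene for most of its length, its CACGTGAC match included. Those of ATG3, ATG14, ATG9A, ATG2A and PIK3C3 overlap their genes in part. Both strands were searched for TTGCNNAA, a C/EBP-type motif, for CACGTGAC, the core of the motif bound by TFEB and its relatives, which contains the E-box CACGTG, for TGACNNNGC, the antioxidant response motif, and for TGACGTCA, the cyclic AMP response motif. The last was added after the windows had been read, and it does not overlap a match of the others in the windows shown. The C/EBP-type motif was in 5 of the 35 windows (14.3%), beside 9.13% of all 27305 promoter windows of that length. These were ATG3, ATG9A, PIK3C3 and ATG2A, which rose, and AMBRA1, which did not pass. CACGTGAC was in 3 windows (8.57%, beside 2.27% of all), those of ATG3, ATG14 and TBK1, all of which rose, and no window held CACGTG outside it. The antioxidant response motif was in 3 windows (8.57%, beside 11.0% of all), those of ATG101, MAP1LC3B and CALCOCO2. TGACGTCA was in 1 window (2.86%, beside 1.77% of all), that of GABARAPL1. The windows of WIPI1, ULK1, SQSTM1, NBR1 and OPTN held none of these letters. Of all 39 genes, 53.8% rose, and whether a match goes with a rise was not tested. A match describes the letters of the window and does not show binding.

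The 7 windows below are those of genes that rose with a C/EBP-type, CACGTGAC or TGACGTCA match, and the windows with the antioxidant response motif are not shown. Each match is in capitals, and the strand is that of the gene. They lie at chr3:112561963-112562212 (minus strand, ATG3), chr14:55411831-55412080 (minus, ATG14), chr12:64451870-64452119 (plus, TBK1), chr2:219229637-219229886 (minus, ATG9A), chr11:64917210-64917459 (minus, ATG2A), chr18:41954984-41955233 (plus, PIK3C3) and chr12:10212627-10212876 (plus, GABARAPL1). The CACGTGAC match, read on either strand, begins 20 bases before the start in ATG3, 21 in ATG14 and 33 in TBK1.
ATG3: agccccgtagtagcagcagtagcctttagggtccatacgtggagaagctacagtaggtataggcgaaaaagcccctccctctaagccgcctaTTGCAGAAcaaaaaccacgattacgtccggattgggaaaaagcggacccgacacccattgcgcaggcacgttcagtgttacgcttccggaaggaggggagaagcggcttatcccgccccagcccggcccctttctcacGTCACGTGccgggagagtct
ATG14: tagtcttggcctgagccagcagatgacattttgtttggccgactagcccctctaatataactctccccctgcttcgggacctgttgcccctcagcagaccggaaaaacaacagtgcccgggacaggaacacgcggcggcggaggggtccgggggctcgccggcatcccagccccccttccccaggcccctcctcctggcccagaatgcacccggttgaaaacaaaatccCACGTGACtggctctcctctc
TBK1: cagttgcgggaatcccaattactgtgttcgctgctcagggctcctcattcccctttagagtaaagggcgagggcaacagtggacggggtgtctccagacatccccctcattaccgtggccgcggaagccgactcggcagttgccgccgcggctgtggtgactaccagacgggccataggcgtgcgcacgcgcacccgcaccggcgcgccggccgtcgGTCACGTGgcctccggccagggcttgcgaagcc
ATG9A: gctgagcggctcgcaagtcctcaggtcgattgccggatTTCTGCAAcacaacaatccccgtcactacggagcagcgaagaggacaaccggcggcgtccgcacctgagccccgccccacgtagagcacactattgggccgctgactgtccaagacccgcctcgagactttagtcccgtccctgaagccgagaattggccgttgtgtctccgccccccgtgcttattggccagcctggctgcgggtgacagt
ATG2A: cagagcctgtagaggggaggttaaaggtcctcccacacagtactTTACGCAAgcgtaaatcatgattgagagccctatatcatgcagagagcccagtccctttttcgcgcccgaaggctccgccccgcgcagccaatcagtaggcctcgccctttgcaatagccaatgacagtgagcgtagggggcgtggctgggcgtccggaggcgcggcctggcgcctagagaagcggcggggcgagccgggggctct
PIK3C3: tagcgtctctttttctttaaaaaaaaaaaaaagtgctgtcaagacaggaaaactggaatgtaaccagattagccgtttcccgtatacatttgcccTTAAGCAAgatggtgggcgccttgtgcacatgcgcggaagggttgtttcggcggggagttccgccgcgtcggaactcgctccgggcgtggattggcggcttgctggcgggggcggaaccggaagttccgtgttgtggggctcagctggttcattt
GABARAPL1: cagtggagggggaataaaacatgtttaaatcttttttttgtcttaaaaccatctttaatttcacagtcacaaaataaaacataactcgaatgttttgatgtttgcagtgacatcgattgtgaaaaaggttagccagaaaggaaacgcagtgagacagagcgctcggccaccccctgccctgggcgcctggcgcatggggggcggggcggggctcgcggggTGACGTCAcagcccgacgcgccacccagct

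The mean effective length of the transcripts assigned to a gene was over 1.2 times longer in the CEBPB group, with the groups apart, for 4 of the 39 genes, where the same held for 5.75% of tested identifiers. It was shorter by that margin for 0 of the 39, beside 2.36% of all tested. ATG4B narrowly missed that cut, at 1070 and 1035 bases in CEBPB against 1233 and 1292 bases in Control, a ratio of 0.834. ATG4C narrowly passed the cut for longer, at a ratio of 1.207. For ATG12 the effective length was 1152 and 1193 bases in CEBPB, against 892 and 991 bases in Control. For ATG10 it was 1646 and 1451 bases in CEBPB, against 1231 and 1006 bases in Control. ATG4C had 1577 and 1392 bases in CEBPB and 1125 and 1336 bases in Control, and STX17 had 2834 and 3535 bases in CEBPB and 2551 and 2338 bases in Control. ATG12 is the one of these 4 genes whose level rose. The median ratio over all tested identifiers was 1.02. The tables do not hold single transcripts, so which transcripts differ was not analysed here.

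Of 55 further autophagy genes from a list of upstream regulators, transcription factors, other core proteins, other receptors and fusion factors, 50 held enough reads to test. 22 of them (44.0%) rose and 6 (12.0%) fell, beside the 23.7% and 24.7% of all identifiers given above. Like the members, this list was chosen with earlier results of these data known, so these shares are descriptions. The median log2 fold change of the 50 tested genes was 0.29. Other receptors rose in 7 of 10 tested cases and fell in 2, core and lipid genes rose in 6 of 10 and fell in 0, and the regulators around mTORC1 and AMPK rose in 2 of 12 and fell in 2. Fusion and tethering genes rose in 4 of 12 and fell in 1, and transcription factors rose in 3 of 6 and fell in 1. Without Control replicate 2 the number that rose was 14.

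CCPG1, a receptor for autophagy of the endoplasmic reticulum, read 550 and 464 TPM in CEBPB, against 81.9 and 78.3 TPM in Control (2.48, SE 0.084, adjusted p = 1.0e-04, edgeR). PRKAA1, the catalytic subunit gene of AMPK, read 211 and 186 TPM in CEBPB and 70.7 and 77.7 TPM in Control (1.24, SE 0.078, adjusted p = 3.3e-04, edgeR). TMEM41B, a scramblase that works with VMP1, read 26.4 and 29.1 TPM in CEBPB and 9.01 and 10.6 TPM in Control (1.33, SE 0.13, adjusted p = 0.0011, edgeR). In these genes both CEBPB libraries stood far above both Control libraries. WDFY3, a scaffold for aggregate clearance, rose by 0.94 (SE 0.11, adjusted p = 0.0019, edgeR), and PINK1, the kinase that tags damaged mitochondria, rose by 0.68 (SE 0.082, adjusted p = 0.0020, edgeR) on the log2 scale. Of the transcription factors, FOXO1 rose by 4.16 (SE 0.85, adjusted p = 0.0117, edgeR), the largest change of the 50 tested genes. FOXO1 read 4.87 and 1.28 TPM in CEBPB, at effective lengths of 1874 and 5791 bases, and 0.184 and 0.0763 TPM in Control. TFE3 rose by 0.71 (SE 0.14, adjusted p = 0.0108, edgeR) and FOXO3 by 0.47 (SE 0.10, adjusted p = 0.0146, edgeR). The calls of FOXO1, TFE3 and FOXO3 did not all hold with each library left out in turn. FOXO3 passed in only 1 of those fits. TFE3 had the same values as another identifier.

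TFEB, a transcription factor that activates autophagy and lysosome genes, fell to 4.21 and 4.47 TPM in CEBPB, against 13.8 and 14.7 TPM in Control (-1.90, SE 0.13, adjusted p = 4.4e-04, edgeR). VAMP8, the lysosomal SNARE that pairs with STX17, fell to 172 and 161 TPM in CEBPB, against 307 and 297 TPM in Control (-1.04, SE 0.061, adjusted p = 2.8e-04, edgeR). Both genes had their CEBPB libraries below both Control libraries. MLST8, an mTORC1 subunit, fell by 0.76 (SE 0.084, adjusted p = 0.0016, edgeR), FKBP8, a mitochondrial receptor, by 0.48 (SE 0.062, adjusted p = 0.0024, edgeR) and TEX264, a receptor of the endoplasmic reticulum, by 0.43 (SE 0.067, adjusted p = 0.0047, edgeR) on the log2 scale.

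**Figure D4:**
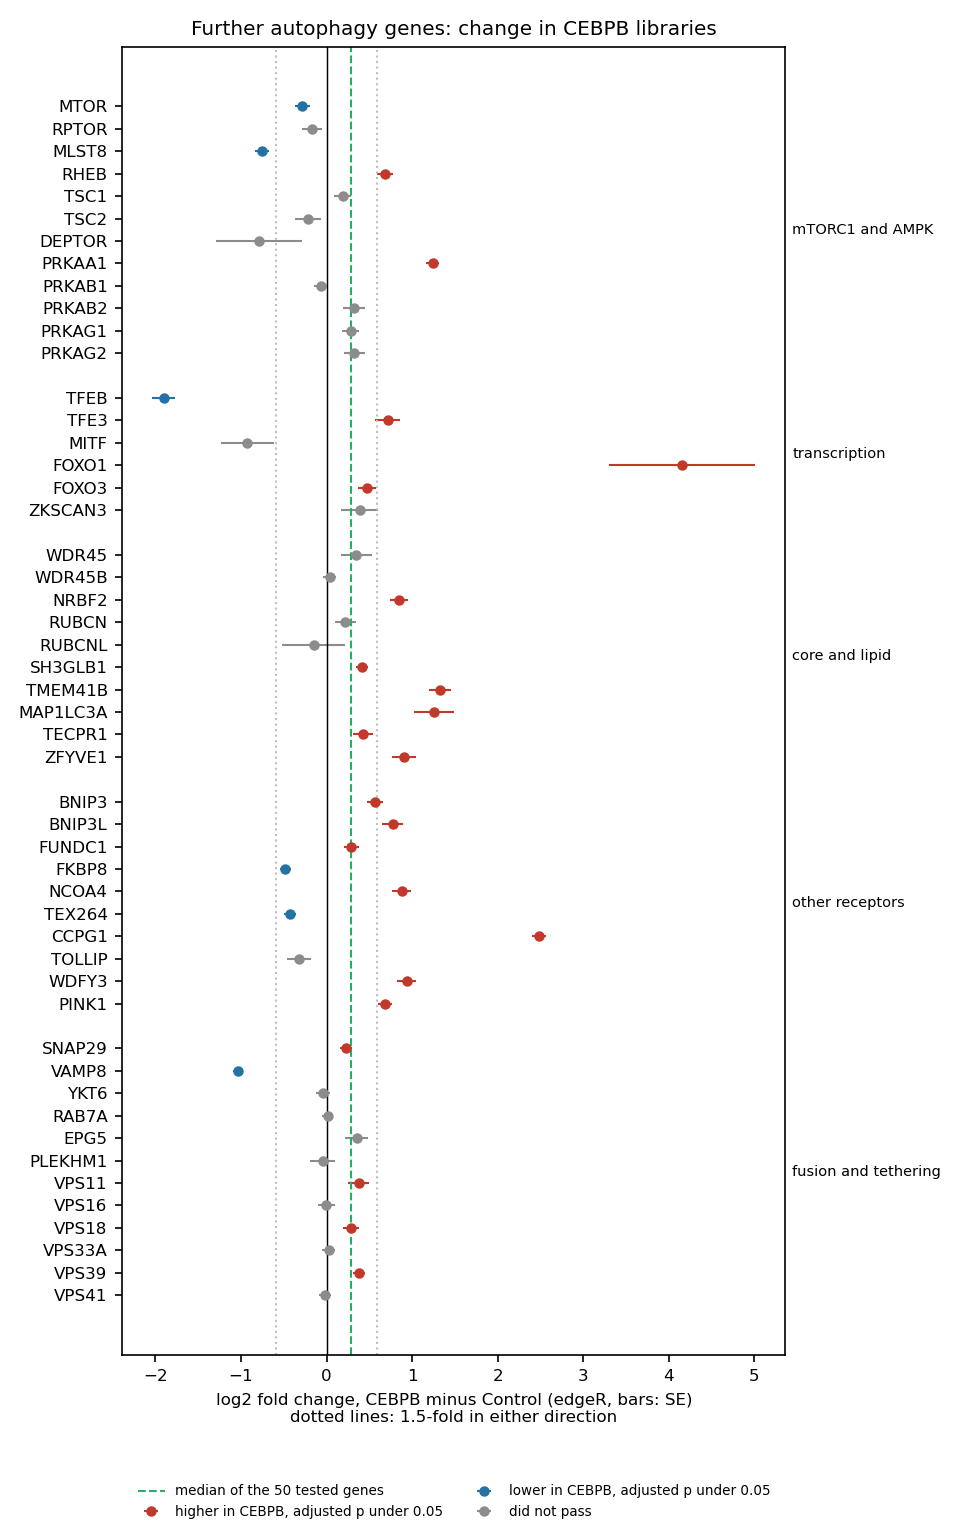
Log2 fold change of CEBPB minus Control with its SE for the 50 further autophagy genes that could be tested, grouped by role, from edgeR with 2 libraries per group. CCPG1, TMEM41B, MAP1LC3A and PRKAA1 are among the genes right of the upper 1.5-fold line, and TFEB and VAMP8 among those left of the lower line. FOXO1 lies furthest right with the widest bar. It had few reads in the Control libraries, and its CEBPB libraries differed (4.87 and 1.28 TPM).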

How the data were processed

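RNA of 2 CEBPB and 2 Control libraries of OCI-AML3 cells was sequenced. Trimmomatic 0.39, kallisto 0.46.2 and the GRCh38 build are named in the submitters' processing notes. The annotation release, strand setting and summing over transcripts are not given in the sources used here, so overlapping antisense reads may be included. The authors deposited per gene the TPM, the estimated count and, as an other unit, the effective length in bases. Every deposited count is the TPM times 1 constant per library, so these counts carry no transcript length. Multiplying TPM by effective length gave back reads, and between 58.7% and 60.8% of values from 0.2 to 500 reads lay within 0.01 of a whole number.

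After rounding, low estimated counts were removed by filterByExpr with the group given, and the rest normalised by trimmed means (TMM, factors 0.938 to 1.09). All identifiers that passed were fitted together by edgeR 4.0.16 under R 4.3.3, using its quasi-likelihood F test and no covariate. A call needed a Benjamini-Hochberg adjusted p under 0.05. The coefficient of variation between libraries estimated by edgeR was 11.3%. The SE is the size of the log2 fold change over the root of F. Symbols matched 35690 of 41084 identifiers. Gene coordinates are those of GENCODE 29 on GRCh38. The alternatives were size factors of DESeq2, library totals, no filter, a minimum of 1 CPM in 2 libraries, the DESeq2 1.42.0 test, voom, limma 3.58.1 on log2 TPM with 1 or 0.1 added, recovered reads with a length offset, a test against a 1.5-fold change, a replicate block, and each library left out in turn. In the last, a group left with 1 library takes its spread from the other group. The members and gene lists were chosen with earlier results of these data known. CEBPB, the members, and the 5 risers and 5 fallers of the further list with the smallest adjusted p were named by rule; other genes were named after their values were seen.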

Additional observations from a re-analysis of the deposited data

How the results depend on the processing

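Across 15 alternatives, 509 of 585 fold changes of the 39 genes kept their direction and side of the threshold, 38 lost a call, 15 gained one and 23 turned sign. None of the 23 genes that passed turned sign, and 16 of them passed in every alternative other than the test against a 1.5-fold change. The 7 that did not are ATG12, ATG14, ATG16L2, ATG2A, ATG4A, ATG4D and CALCOCO2. Against a 1.5-fold change 1186 identifiers rose and 1188 fell, 7 members rose and 1 fell, and 8 of the further list rose and 2 fell. On log2 TPM 1 member fell with either pseudocount. With 1 library left out, 2289 to 2820 identifiers rose and 2398 to 3063 fell, 16 to 20 members rose and 1 to 3 fell, and 14 to 17 of the further list rose and 5 to 7 fell. With a replicate block 20 members rose and 2 fell, as ATG4D did not pass. The numbers are not tied to a batch by the labels, and deviations of same-numbered libraries had a correlation of -0.0284.

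All sign changes were in genes that did not pass. With library totals and on log2 TPM with 1 and 0.1 added, BECN1 was at 0.092, 0.092 and 0.092, PIK3R4 at 0.17, 0.16 and 0.17, WIPI2 at 0.090, 0.089 and 0.091, ATG7 at 0.15, 0.15 and 0.15 and ATG16L1 at 0.16, 0.14 and 0.16. PIK3R4 was at 0.0014 with at least 1 CPM in 2 libraries. With 1 library left out, PIK3R4 ranged from -0.16 to 0.15, VMP1 from -0.048 to 0.19, ATG5 from -0.070 to 0.11, ATG7 from -0.10 to 0.045 and ATG16L1 from -0.14 to 0.12. The first 3 settings leave out trimmed-mean scaling; the cause of the others was not tested.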
